A study of Mus musculus with 8 samples.

Results

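The GPIb-IX-V complex is the platelet receptor that catches von Willebrand factor (VWF) exposed on an injured vessel wall. GPIbα, encoded by Gp1ba, carries the VWF binding site, GPIbβ (Gp1bb) and GPIX (Gp9) hold it at the surface, and GPV (Gp5) is a more loosely attached subunit. VWF is made by endothelial cells and by megakaryocytes, which pack it into the alpha-granules of the platelets they shed. Loss of GPIbα, GPIbβ or GPIX causes Bernard-Soulier syndrome, a bleeding disorder with giant platelets, and loss of VWF causes von Willebrand disease. Platelets have no nucleus, so the RNA read here was inherited from megakaryocytes, apart from RNA of other cells carried along in the preparation.

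The transcripts of the 4 receptor subunits and of Vwf were taken from the table by gene symbol. They were 5 of its 43548 genes, and all 5 were above 0 in all 8 libraries, as were 409 genes in the whole table. Mice termed TNFdARE lack the AU-rich element of the Tnf gene, so they overproduce TNF-α and develop arthritis and bowel inflammation. The allele is in the germline and is not limited to platelets or megakaryocytes. Total RNA came from washed platelets of 4 TNFdARE mice and 4 control littermates without the allele, each group holding 2 females and 2 males at baseline with no agent given. The control libraries are named B6, and the TNFdARE line was backcrossed to C57BL/6J. The mice were 8 to 12 weeks old by the study's methods and 1 line of the labels. Another line, on male mice of 5.2 months and bone, and a count of 3 mice per group go against those methods and were not used. The question put to each gene was whether its transcript differed between TNFdARE and control platelets.

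Values are FPKM, fragment numbers scaled by transcript length and by the fragments mapped in the library, so that levels can be compared between genes. The libraries were uneven. Between 818 and 4917 genes were above 0 per library, 1 transcript (AY036118) took 33.7% to 67.7% of the summed FPKM, and 6.98% to 58.3% of the 1534 genes tested, those averaging 1 FPKM or more, were at 0. TNFdARE mice 1 and 4 stood apart, with 818 and 1225 genes above 0 and 58.3% and 43.0% of the tested genes at 0, so zeros in them are common. Control mouse 1 came next, with 1479 genes above 0 and 36.1% of the tested genes at 0. The log2 fold changes of Gp9 and Vwf were 0.87 and -0.83 without TNFdARE mouse 1 and 0.68 and -1.004 without TNFdARE mouse 4, against 0.74 and -0.87 over all mice. Read depth is unknown, so no counting error can be given. The platelet label fitted the 13 platelet and megakaryocyte markers, which were all detected at a summed 1188 to 1728 FPKM in control and 1220 to 1300 in TNFdARE mice. Of these markers 10 had negative and 3 positive log2 fold changes, at a median of -0.57 (-0.66 without control mouse 1, -0.32 after quantile normalization and -0.06 with sample weights). The lists around the receptor can be read beside these medians.

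The DNA just before the start of each subunit gene is shown because megakaryocyte genes of this kind are known to be driven by GATA1 and by ETS factors such as FLI1. Each sequence holds the 150 bases before the RefSeq start (GRCm38.p6), 5′ to 3′ on the strand of the gene. All 4 subunits matched an entry. Capitals mark GATAA and AGGAAG, searched on both strands, so they read TTATC and CTTCCT where the match is on the other strand.
Gp1ba: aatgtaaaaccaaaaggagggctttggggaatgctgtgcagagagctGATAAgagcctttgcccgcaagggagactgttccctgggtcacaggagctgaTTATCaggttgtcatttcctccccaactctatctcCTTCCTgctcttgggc
Gp1bb: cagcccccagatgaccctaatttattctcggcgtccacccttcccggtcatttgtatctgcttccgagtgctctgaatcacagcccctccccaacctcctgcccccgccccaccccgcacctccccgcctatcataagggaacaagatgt
Gp9: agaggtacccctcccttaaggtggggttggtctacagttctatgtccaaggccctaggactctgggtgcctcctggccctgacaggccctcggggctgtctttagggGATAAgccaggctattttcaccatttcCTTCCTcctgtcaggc
Gp5: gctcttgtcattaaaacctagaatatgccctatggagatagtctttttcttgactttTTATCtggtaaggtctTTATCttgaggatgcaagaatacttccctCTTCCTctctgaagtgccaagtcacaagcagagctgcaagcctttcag
These windows lie at chr11:70638972-70639121 (Gp1ba, plus strand), chr16:18622404-18622553 (Gp1bb, minus strand), chr6:87777920-87778069 (Gp9, plus strand) and chr16:30310782-30310931 (Gp5, minus strand). Gp1ba and Gp5 each held 2 GATAA matches and 1 AGGAAG match, Gp9 held 1 of each, and Gp1bb held neither. In Gp1ba and Gp9 the AGGAAG match covered the same bases, 16 to 11 before the start. Of 32851 mouse promoters, 13.3% held GATAA and 19.7% held AGGAAG within a window of this length. A match of letters is a description of the sequence and does not show that a factor binds there.

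For none of the 5 transcripts was a difference between genotypes found beyond the spread between mice. The range over mice overlapped between the groups for every one of them, as it did for all but 51 of the 1534 genes tested (3.32%). None of the 5 had an unadjusted p under 0.05, against 69 of the 1534 genes (4.5%, with 1.76% higher and 2.74% lower in TNFdARE mice), and no gene in the table had an adjusted p under 0.05 (limma, Benjamini-Hochberg adjustment over all 1534, lowest value 0.86). Over all genes tested the median log2 fold change was -0.30, and -0.41 to -0.14 with 1 mouse left out. A value near 0 thus lay above the middle of the genes tested in this fit. That middle depended on the processing, at -0.12 after quantile normalization, -0.01 with sample weights and 0.009 with no filter on low values. Each fold change below is a difference of mean log2(FPKM + 1), TNFdARE minus control, and each exact permutation p is two-sided with 0.0286 as the smallest that 4 mice against 4 can give.

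Gp1ba, on chromosome 11 at 70639122 to 70642036 (mm10, 2 exons), encodes the subunit that binds VWF and thrombin. It was the lowest of the 5. Control mice 1 to 4 had 15.0, 13.4, 9.32 and 6.39 FPKM. TNFdARE mice 1 to 4 had 7.43, 11.2, 12.4 and 11.2 FPKM. The TNFdARE values all lay inside the control range. The means were 11.01 ± 3.89 FPKM in control and 10.6 ± 2.17 FPKM in TNFdARE mice (SD, n = 4 each). The log2 fold change was -0.01 (SE 0.54, 95% interval -1.18 to 1.15, limma adjusted p = 0.998, exact permutation p = 0.943), and it turned positive, to 0.23, after quantile normalization.

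Gp1bb, on chromosome 16 at 18620317 to 18622403 (1 exon in its longest transcript), encodes the subunit linked to GPIbα by disulfide bonds. Control mice 1 to 4 had 129, 65.5, 69.8 and 40.0 FPKM. TNFdARE mice 1 to 4 had 76.3, 57.0, 67.4 and 87.1 FPKM. Control mouse 1 was the highest of all 8 and control mouse 4 the lowest, so the control group spanned the TNFdARE group at both ends. The means were 76.1 ± 37.7 and 71.9 ± 12.8 FPKM, with a log2 fold change of 0.03 (SE 0.45, 95% interval -0.95 to 1.00, limma adjusted p = 0.996, exact permutation p = 0.971). It was 0.32 (SE 0.31) without control mouse 1. The level of Gp1bb is uncertain, because 1902 of its 2087 exon bases (91.1%) also belong to transcripts of Sept5 on the same strand. Sept5, a septin, was listed above 0 in 2 mice and reached 1.20 FPKM, and how reads of the shared bases were divided is not given in the sources used here.

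Gp9, on chromosome 6 at 87778072 to 87779768 (2 exons), encodes GPIX, the small subunit without which the complex does not reach the surface. Control mice 1 to 4 had 28.3, 88.5, 117.6 and 59.4 FPKM. TNFdARE mice 1 to 4 had 83.2, 138.7, 98.9 and 122.6 FPKM. The 2 highest values were TNFdARE and the 2 lowest were control, with control mice 2 and 3 among the TNFdARE values. Gp9 had the largest positive log2 fold change of the 5, 0.74 (SE 0.49, 95% interval -0.31 to 1.79), on means of 73.5 ± 38.3 and 110.9 ± 24.6 FPKM. It did not pass the test (limma adjusted p = 0.86, exact permutation p = 0.171), and without control mouse 1 it was 0.35 (SE 0.33).

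Gp5, on chromosome 16 at 30307685 to 30310779 (2 exons), encodes GPV, a thrombin substrate of the platelet surface. Control mice 1 to 4 had 13.2, 24.5, 28.0 and 17.6 FPKM, and TNFdARE mice 1 to 4 had 13.7, 22.3, 22.8 and 18.8 FPKM. Mouse 1 was the lowest of its group in both genotypes, and all TNFdARE values lay within the control range. The means of 20.8 ± 6.69 and 19.4 ± 4.20 FPKM gave a log2 fold change of -0.07 (SE 0.50, 95% interval -1.14 to 1.00, limma adjusted p = 0.986, exact permutation p = 0.829). Quantile normalization turned it to 0.02, and it was -0.26 without control mouse 1.

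Vwf, on chromosome 6 at 125546774 to 125686679 with 52 exons in its longest transcript, encodes the ligand. Control mice 1 to 4 had 200.04, 45.0, 51.8 and 40.0 FPKM, and TNFdARE mice 1 to 4 had 33.0, 27.2, 37.7 and 47.4 FPKM. Control mouse 1 stood 4.39-fold above the mean of the other controls, and 3 of the 4 TNFdARE mice lay below every control mouse. The means were 84.2 ± 77.4 FPKM in control and 36.3 ± 8.56 FPKM in TNFdARE mice, and 45.6 ± 5.92 FPKM in control mice 2 to 4. The log2 fold change of -0.87 (SE 0.55, 95% interval -2.06 to 0.32) did not pass the test (limma adjusted p = 0.86, exact permutation p = 0.0857). Without control mouse 1 it was -0.34 (SE 0.30, 95% interval -1.04 to 0.36, exact permutation p = 0.171), so most of the difference in means came from that mouse. In bulk RNA, fewer cells of a type and less RNA per cell cannot be told apart.

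**Figure D1:**
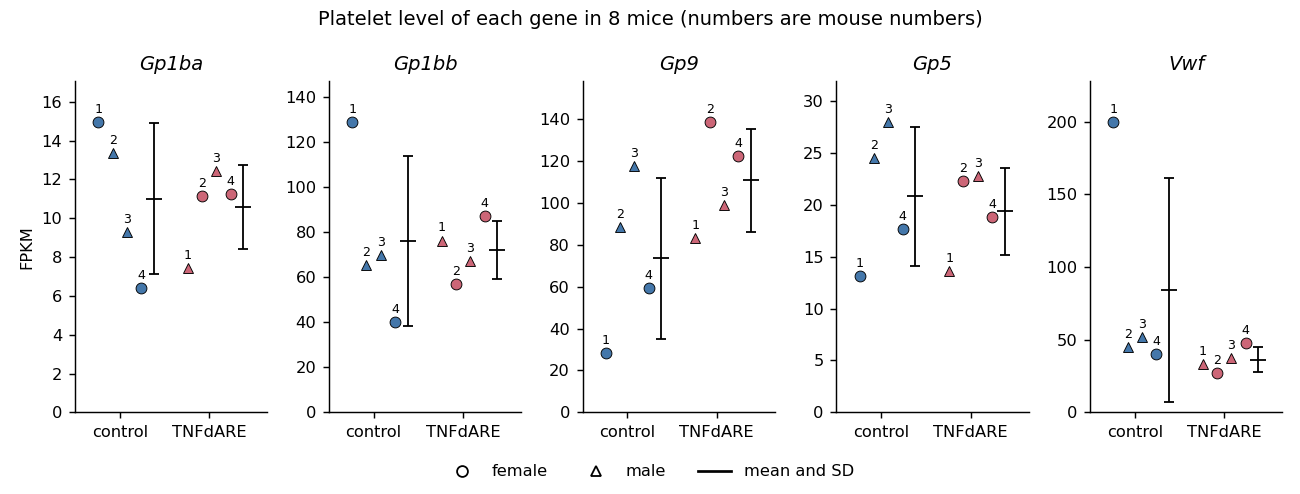
FPKM of Gp1ba, Gp1bb, Gp9, Gp5 and Vwf in each control and TNFdARE mouse, 1 panel per gene, with circles for females, triangles for males and the mean with SD beside each group. Both groups overlap in every panel, and control mouse 1 stands at 200.04 FPKM for Vwf and 28.3 FPKM for Gp9.

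**Figure D2:**
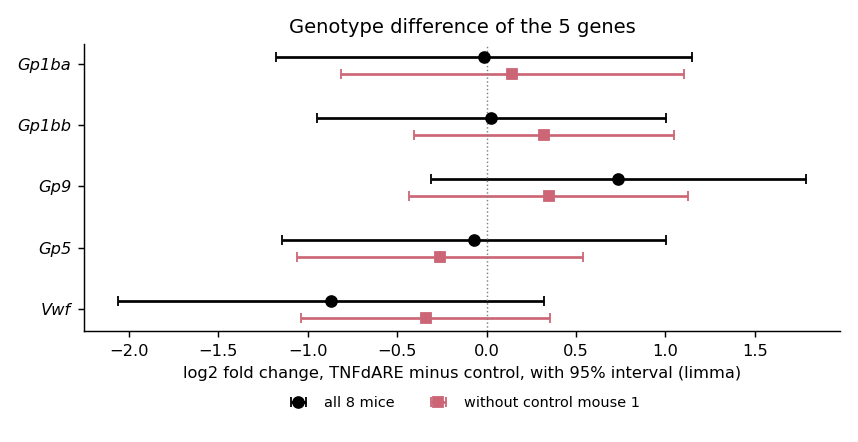
Log2 fold change between TNFdARE and control platelets with its 95% interval (limma), over all 8 mice (circles) and without control mouse 1 (squares). Every interval includes 0, and the values of Gp9 and Vwf move from 0.74 to 0.35 and from -0.87 to -0.34.

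Control mouse 1 shaped what the 5 transcripts showed, and in opposite directions. Relative to the mean of the other controls, it had 4.39 times their Vwf, 2.21 times their Gp1bb and 1.55 times their Gp1ba, but 0.319 of their Gp9 and 0.563 of their Gp5. It was set beside 395 genes above 0 in every library that averaged 1 FPKM or more and had a known transcript length. Of these, 5.57% lay farther from the other controls in this mouse than Vwf did, and 10.9% lay farther than Gp9. For Gp1bb, Gp5 and Gp1ba the shares were 20.3%, 35.7% and 43.8%, so their shifts were less unusual. Over all 8 mice the coefficient of variation was 26.0% to 39.0% for the 4 subunits and 94.6% for Vwf, and over the 7 other mice it was 21.2% to 26.6% for all 5 genes.

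Endothelial cells also make VWF, so their markers are given beside it. Of 12 endothelial markers, 7 were at 0 in all 8 mice, among them Cdh5, Tek, Emcn and Eng. The summed level of the list was 3.52 to 40.0 FPKM in control and 10.3 to 38.6 FPKM in TNFdARE mice. Its highest value was in control mouse 1 and consisted of Esam, a junction protein that platelets also make. Esam, the only one of the list that was tested, had a log2 fold change of 0.59 (limma adjusted p = 0.87), 1.09 without control mouse 1, and 1.35 with an unadjusted p under 0.05 with sample weights. Erythroid markers summed to 751 to 2198 FPKM in control and 1107 to 14652 FPKM in TNFdARE mice, lowest in control mouse 1. All 7 erythroid markers tested had positive values at a median log2 fold change of 1.95, and 6 had an unadjusted p under 0.05, against 1.76% of all genes in that direction. Without control mouse 1 the median was 1.84 and none of the 7 had such a p, and with sample weights 6 of 7 were positive at a median of 1.24 and 4 had such a p. The globin Hba-a2, the most abundant of them, was 246.0 to 758.1 FPKM in control mice, 354.0 and 759.7 FPKM in TNFdARE mice 2 and 3, and 2858 and 4836 FPKM in TNFdARE mice 1 and 4. The high values were thus in the libraries that stood apart.

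Leukocyte markers were at 0 or at low values, apart from the lysozyme Lyz2 of monocytes and macrophages. A 0 alone does not show that a gene is not expressed, because Rplp0, a ribosomal protein gene, was at 0 in control mouse 1. Lyz2 was 30.8, 37.3, 50.3 and 47.3 FPKM in the control mice and 11.9, 35.8, 23.9 and 18.1 FPKM in the TNFdARE mice, with overlapping groups. Its log2 fold change was -0.94 (SE 0.50, limma adjusted p = 0.86), the same sign as that of Vwf, and -1.07 without control mouse 1, where its unadjusted p was under 0.05. Control mouse 1, the highest for Vwf, was the lowest control mouse for Lyz2. Of 7 monocyte and macrophage genes in the table, 5 were at 0 in all mice, among them Cd14 and Cd68. The neutrophil list summed to 0 in control mice and 0 to 10.3 FPKM in TNFdARE mice, where S100a9 was at 10.3 FPKM in TNFdARE mouse 4 and at 0 in the other mice, and the B and T cell lists reached 2.09 and 2.07 FPKM. The part of these RNAs in the levels of Vwf was not tested.

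Levels were next compared between the 5 transcripts within each mouse. This asks in what proportion platelets carry the RNA, not the protein, of the receptor's parts and of its ligand. The level of Gp1bb stays uncertain here, because most of its exon bases also belong to Sept5. Averaged over 8 mice, the order was Gp9, Gp1bb, Vwf, Gp5 and Gp1ba, at 92.2, 74.0, 60.3, 20.1 and 10.8 FPKM. The TNFdARE means of Gp9, Gp1bb and Vwf kept this order, at 110.9, 71.9 and 36.3 FPKM. The control means, with control mouse 1 included, reversed it, at 73.5, 76.1 and 84.2 FPKM. Gp5 and Gp1ba came last in both groups. The subunit that binds VWF was thus the least abundant transcript of its own receptor. Gp1ba was below Gp1bb in 8 of 8 mice, by 2.64 ± 0.37 on the log2 scale (SD, n = 8, exact sign-flip permutation test, adjusted p = 0.013 over 10 pairs). It was below Gp9 by 2.89 ± 0.87 with the same exact adjusted p, and below Gp5 in 7 of 8 mice by 0.84 ± 0.50 (exact sign-flip permutation test, adjusted p = 0.022). In all, 7 of the 10 pairs differed.

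The 3 pairs that did not pass were those among Gp9, Gp1bb and Vwf. Gp9 exceeded Vwf in 7 of 8 mice, by 0.78 ± 1.52 on the log2 scale (exact adjusted p = 0.217), and control mouse 1 was the exception with 28.3 against 200.04 FPKM. Gp9 exceeded Gp1bb in 7 of 8 mice, again all but control mouse 1. Without that mouse these 3 pairs differed as well, with adjusted p from 0.017 to 0.031 (exact sign-flip permutation test), and the order was unchanged. That mouse was the exception for Gp9 over Vwf and Gp9 over Gp1bb. Leaving it out thus set both at 0.0156, the smallest unadjusted p that this test can give over 7 mice. With any other mouse left out, 7 of the 10 pairs differed, as over all 8. Within single libraries, Gp9 ranked between 37 and 182, Gp1bb between 46 and 101 and Vwf between 32 and 150 among all genes, while Gp5 ranked 164 to 333 and Gp1ba 271 to 478.

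**Figure D3:**
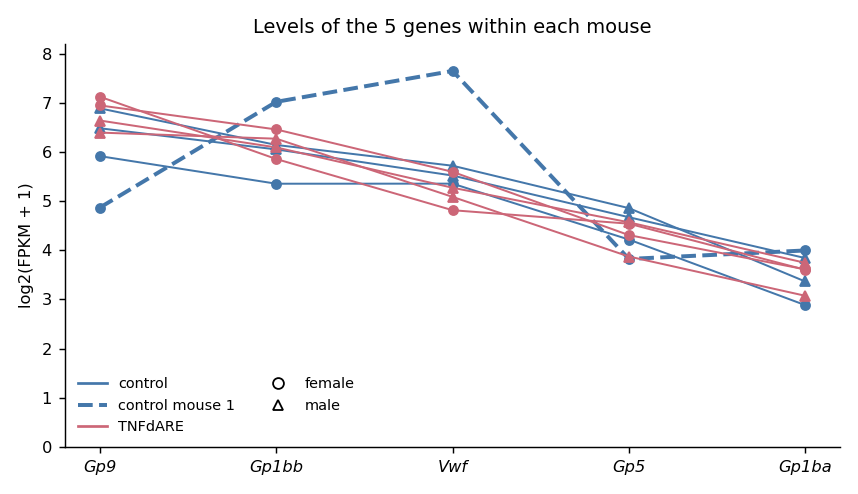
Level of each gene as log2(FPKM + 1), 1 line per mouse, with genes ordered by their mean FPKM. Gp9 is the highest and Gp1ba the lowest in 7 mice, control mouse 1 (dashed) has Vwf highest and Gp5 lowest, and control mouse 4 has Vwf and Gp1bb level at 40.0 FPKM.

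Ratios within a mouse do not depend on how libraries are scaled. Of the 10 ratios between the 5 transcripts, 3 (30%) did not overlap between genotypes, against 2731 of 79800 ratios (3.42%) between all genes of at least 1 FPKM that were above 0 in every mouse. The 10 ratios share 5 genes and are not independent, and they were given no test. Vwf over Gp9 took the values 7.08, 0.508, 0.441 and 0.673 in the 4 control mice, in number order, against 0.397, 0.196, 0.381 and 0.387 with the TNFdARE allele. Every TNFdARE mouse was thus below every control mouse.

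For Vwf over Gp1bb the control mice had 1.55, 0.687, 0.742 and 1.00, against 0.433, 0.477, 0.560 and 0.545 for the TNFdARE mice. It was lower in every TNFdARE mouse, at a mean of 0.504 ± 0.0595 against 0.995 ± 0.394 (SD, n = 4 each). For Gp9 over Gp5 the control mice had 2.15, 3.61, 4.19 and 3.37, against 6.09, 6.22, 4.34 and 6.50 for the TNFdARE mice. This ratio was higher in every TNFdARE mouse, at 5.79 ± 0.980 against 3.33 ± 0.862, although TNFdARE mouse 3 was close to control mouse 3.

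The other 7 ratios overlapped. Gp1bb over Gp1ba, the pair whose proteins are joined by disulfide bonds, was 4.90 to 8.62 in control and 5.11 to 10.3 in TNFdARE mice. Gp5 over Gp1ba was 0.880 to 3.01 in control mice and 1.68 to 2.00 in TNFdARE mice, the narrowest TNFdARE range of the 10 relative to its level. The control mice other than mouse 1 had 1.84 to 3.01. Vwf over Gp1ba, ligand against binding subunit, was 3.37 to 13.4 in control and 2.43 to 4.44 in TNFdARE mice. Without control mouse 1 its control range was 3.37 to 6.26.

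**Figure D4:**
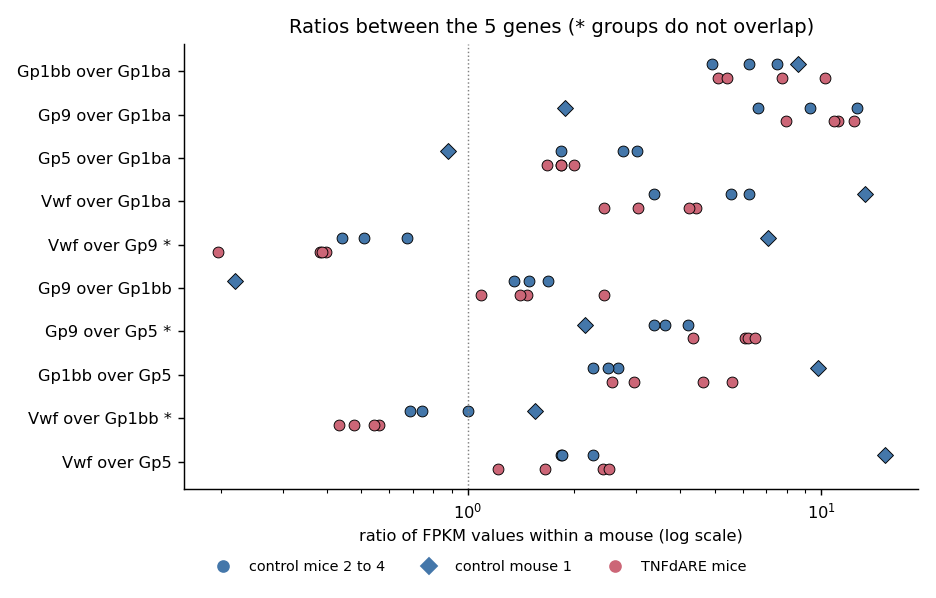
The 10 ratios between the FPKM values of the 5 genes in each mouse, on a log axis, with control mouse 1 as a diamond. An asterisk marks the 3 ratios whose groups do not overlap, Vwf over Gp9, Gp9 over Gp5 and Vwf over Gp1bb.

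Across mice, no pair of the 5 transcripts had a correlation of levels that passed the correction over 10 pairs. Pearson's r of Gp9 with Gp5 was 0.69 (exact permutation p = 0.048, adjusted p = 0.19, Spearman's rho 0.60 with exact p = 0.13). It was 0.40 without the 2 mice farthest from the median of Gp9, and 0.47 without control mouse 1. For Gp1bb with Vwf r was 0.75 (exact permutation p = 0.057, adjusted p = 0.19, rho 0.57 with exact p = 0.15), and 0.26 without control mouse 1. For Gp9 with Vwf r was -0.82 (exact permutation p = 0.057, adjusted p = 0.19, rho -0.31 with exact p = 0.46), and -0.08 without control mouse 1. The relations of Vwf with Gp1bb and with Gp9 rest on that mouse. With the genotype means subtracted, 2 pairs did pass, Gp9 with Gp5 at r = 0.89 and Gp1bb with Vwf at r = 0.91 (permutation test, adjusted p = 0.0057 for both), with control mouse 1 included. That test exchanged the subtracted values freely between the groups, although they are tied within each group. Its p-values are thus approximate and not exact.

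**Figure D5:**
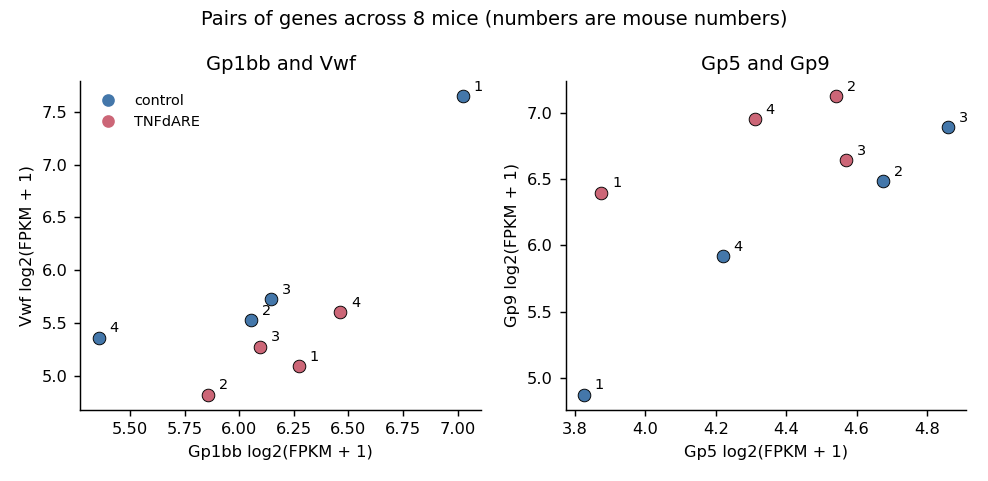
Log2(FPKM + 1) of Vwf against Gp1bb and of Gp9 against Gp5, 1 point per mouse with its number. Control mouse 1 lies at the top right of the plot of Vwf and at the bottom left of the plot of Gp9, away from the other 7 mice.

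Among 399 other genes above 0 in all mice and averaging 1 FPKM or more, those most like each transcript were found by Pearson's r. This was done over the 8 mice, as a description. Gp5 was closest to Myl6, the myosin light chain of platelet contraction, with r = 0.96, and to the tetraspanin Cd81 (0.90) and the calcium pump Atp2a3 (0.89). These 3 values were 0.95, 0.87 and 0.87 without control mouse 1. Gp1bb was closest to the tubulin Tubb6 (0.90), Gclm (0.86) and S100a10 (0.85), at 0.87, 0.75 and 0.90 without that mouse. Gp1ba was closest to Mcur1 (0.85), Tagln2 (0.79) and Gm26825 (0.76), at 0.80, 0.82 and 0.87 without it.

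Gp9 was closest to Cap1, an actin regulator (0.94), Clec1b (0.92) and Rbpms2 (0.87), which fell to 0.78, 0.69 and 0.44 without control mouse 1. Vwf was closest to Litaf (0.88), Serf2 (0.84) and Actn4 (0.82), and without control mouse 1 these were 0.42, 0.48 and -0.18. The likeness of these genes to Vwf thus came largely from 1 mouse. No other of the 5 transcripts was among the 3 closest to any of them, and all points share library and depth.

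The effect of genotype did not differ detectably between females and males for any of the 5, with 2 mice per sex and genotype. The interaction had an unadjusted p under 0.05 for 54 of 1534 genes (3.52%), none of them among the 5. The largest was that of Gp9, whose mean was 43.9 FPKM in control and 130.6 FPKM in TNFdARE females, and 103.1 and 91.1 FPKM in control and TNFdARE males. Its effect was 1.81 higher in females on the log2 scale (SE 0.97, limma adjusted p = 0.92), and the low female control value includes control mouse 1. The adjusted p of the other 4 interactions lay between 0.93 and 0.98 (limma).

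The genes around the receptor were then read in lists by their role. Of the molecules other than VWF that bind GPIb outside the cell, 6 of 8 were at 0 in all mice, among them the coagulation factors F2, F11 and F12, which are made in liver. The 2 tested were Thbs1, thrombospondin, with a log2 fold change of -0.30, and Selp, P-selectin, with -1.15 (limma adjusted p = 0.90 and 0.86). Neither passed, and Selp was at 0 in TNFdARE mice 1 and 4, the libraries with the most genes at 0. Of 3 tested genes for shedding and cleavage, Capns1 (0.23), Adam10 (-0.58) and Capn2 (-0.07), the first and last calpain subunits and the second a sheddase, none had an unadjusted p under 0.05. Leaving out control mouse 1, these were 0.56, -0.68 and 0.06. Adamts13, the protease of VWF, was at 0 in all mice.

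All 7 tested cytoplasmic partners of GPIb had negative values (6 of 7 after quantile normalization), but none had an unadjusted p under 0.05. Their median log2 fold change was -0.70 against -0.30 over all genes. Without control mouse 1 it was -0.34 against -0.26, with 6 of 7 negative. It was -0.46 against -0.12 after quantile normalization and -0.69 against -0.01 with sample weights. They include the 14-3-3 proteins, which bind the GPIbα tail, and filamin, which ties it to actin. Ywhah, 14-3-3η, stood at 101.1, 102.8, 96.4 and 101.3 FPKM in the control mice, against 72.6, 77.2, 96.2 and 80.0 FPKM in the TNFdARE mice. The groups were apart, with TNFdARE mouse 3 just below control mouse 3, and the log2 fold change was -0.31 (SE 0.37, limma adjusted p = 0.87). Flna was -0.16, or 0.22 without control mouse 1, and Ywhaz was -0.10, or -0.34 without that mouse, both with overlapping groups.

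Of 11 tested genes of signalling downstream of GPIb, 9 had negative values (7 after quantile normalization), at a median of -0.45 (-0.18 after quantile normalization). An unadjusted p under 0.05 was found for 1 of the 11, lower in TNFdARE mice, as for 2.74% of all genes tested, and for none of them after quantile normalization or with sample weights. The gene was Rap1b, the small GTPase that activates the integrin αIIbβ3. The control mice had 13.8, 10.7, 13.2 and 13.9 FPKM of Rap1b, and the TNFdARE mice had 0, 10.9, 6.90 and 2.77 FPKM. TNFdARE mouse 2 lay above control mouse 2, and the other TNFdARE mice lay below every control mouse. Its log2 fold change was -1.68 (SE 0.75, limma adjusted p = 0.86), and its unadjusted p was 0.05 or more under 12 of 19 alternatives. The fold change stayed at -1.61 to -1.76 in those that left out 1 control mouse or TNFdARE mouse 4, and was -0.97 without TNFdARE mouse 1 and -0.77 with sample weights. Rasgrp2, the exchange factor of Rap1, was at 0 in TNFdARE mouse 1 too and had a value of -1.72, Fermt3 (kindlin-3) had -0.56 and Tln1 (talin) -0.13 (0.07 without control mouse 1), with limma adjusted p from 0.86 to 0.97.

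Of 11 transcription factors known for such genes, 4 were tested. All 4 had positive values at a median log2 fold change of 0.55, but with sample weights it was 3 of 4 at a median of 0.05, and none had an unadjusted p under 0.05. Gata1 was 0.128 to 7.87 FPKM in control mice and 0 to 33.0 FPKM in TNFdARE mice. Its log2 fold change was 0.44, with 0.66 for Tal1 and 0.26 for Nfe2 (0.70, 0.68 and 0.49 without control mouse 1), and 1 TNFdARE mouse held most of the signal for each, mouse 4 for Gata1 and mouse 1 for Tal1 and Nfe2. Gata1 was at 0 in TNFdARE mouse 1 and Tal1 at 0 in TNFdARE mouse 4. Gata1 and Tal1 also serve the erythroid lineage, whose markers were highest in TNFdARE mice 1 and 4. The part of erythroid RNA in these values was not tested.

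Among 11 tested adhesion receptors other than the complex, 9 had negative values (8 after quantile normalization and 5 with sample weights) and none had an unadjusted p under 0.05, at a median log2 fold change of -0.38. That median was -0.13 after quantile normalization and 0.01 with sample weights. Clec1b, which encodes the podoplanin receptor CLEC-2, was among the genes most like Gp9. The control mice had 14.8, 47.1, 46.0 and 27.9 FPKM, and the TNFdARE mice had 50.1, 49.9, 61.2 and 51.2 FPKM. Every TNFdARE mouse was above every control mouse, yet the log2 fold change of 0.76 (SE 0.49) had a limma adjusted p of 0.86, and it was 0.42 without control mouse 1. The tetraspanin Cd9 (-0.32) and Itga2b (-0.39), the αIIb integrin, had overlapping groups.

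VWF is stored with other alpha-granule proteins, and none of the 10 of these tested had an unadjusted p under 0.05, with 3 positive and 7 negative values at a median of -0.15 (5 and 5 after quantile normalization). Without control mouse 1 it was 4 and 6 at a median of -0.02. Pf4, the chemokine platelet factor 4, had a log2 fold change of 0.52, Ppbp of -0.68 and Clu of -0.25. In control mouse 1 these 3 were at 222.7, 285.1 and 196.5 FPKM, within the range of the other control mice except for Ppbp, which lay just below it. Selp, whose protein sits in the same granule membrane, was 10.3 FPKM in control mouse 1 and 1.56 to 4.35 FPKM in the other control mice, so it was high there as Vwf was.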

How the data were processed

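Washed platelets from 4 TNFdARE and 4 control mice gave 1 library of total RNA per mouse, sequenced as 150-base reads on an Illumina NovaSeq instrument. The authors list the aligner gSNAP among their software, and their processing notes name Cufflinks and the mm10 build, and the table deposited holds 1 FPKM value per gene and mouse. The unit is not named in it and was taken from the tool and the values. Aligner settings, annotation, strand setting and read depth are not given in the sources used here, and low values showed no common step from which reads could be recovered.

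Genes averaging 1 FPKM or more entered a limma fit (version 3.58.1, R 4.3.3, empirical Bayes with trend, no covariate) of log2(FPKM + 1), with Benjamini-Hochberg adjustment over 1534 genes. Single genes were also given two-sided exact permutation tests, and levels within mice exact sign-flip tests over 10 pairs. The fit was tested on simulated data. Gene overlaps came from GENCODE M21 and sequence matches from BLAST 2.17.0. The genes named were the 5 transcripts, in each list the 3 most abundant and those with an unadjusted p under 0.05, the top marker of each cell type and the 3 genes most like each transcript. Transcripts and lists were chosen with earlier results of these data known. Alternatives were pseudocounts of 0.1 and 5, other filters and scalings, sample weights, sex or replicate number in the fit, and leaving out each mouse. Vwf has no entry in the promoter table used.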

Additional observations from a re-analysis of the deposited data

Results flagged for a closer look

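Within groups of 4 mice, a mouse was examined for lying far from the other 3, by the gap to its nearest neighbour as a share of the group's range. This was met in 12 of 80 groups, where chance gives about 4. Without the genes chosen only for their likeness to a transcript it was met in 10 of 52 groups, where chance gives 2.6. Those expected numbers do not allow for skewed FPKM values, and the genes share libraries, so an excess over chance was not shown. All the values found but that of Rbpms2 were the highest of their group. Among the 5 transcripts only Vwf met the rule, in control mouse 1 at 200.04 FPKM (0.926 of the range). In the same mouse it was met by Actn4 at 39.4 FPKM (0.907) and by Rbpms2 at 0.447 FPKM (0.926), but these were examined because they were most like Vwf and Gp9 over mice that include control mouse 1, so they are no separate sign of it.

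Other genes met it in other mice. In TNFdARE mouse 1 these were Ywhaz at 44.9 FPKM (0.905), Capns1 at 41.7 FPKM (0.942) and Tal1 at 49.4 FPKM (0.955). Ywhaz met it again in control mouse 4 at 20.7 FPKM (0.842), as did Ppbp in that mouse at 407.6 FPKM (0.910). Adam10 met it in control mouse 2 at 11.4 FPKM (0.884), Pf4 in control mouse 3 at 471.7 FPKM (0.900), Clec1b in TNFdARE mouse 3 at 61.2 FPKM (0.890) and Gata1 in TNFdARE mouse 4 at 33.0 FPKM (0.889).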

How the results depend on the processing

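Of the 5 transcripts, Gp9 stayed positive (0.35 to 1.02) and Vwf negative (-1.10 to -0.34) under all 19 alternatives, and none of the 5 reached an unadjusted p of 0.05 in any (limma adjusted p from 0.61 to 1). Values near 0 changed sign. Gp1ba was 0.23 after quantile normalization, 0.05 with median-of-ratios scaling, 0.34 with sample weights and -0.23 to 0.14 with 1 mouse left out. Gp1bb was -0.015 after rescaling without the most abundant gene and -0.24 to 0.32 with 1 mouse left out. Gp5 was 0.020, 0.12 and -0.26 to 0.085 with quantile normalization, sample weights and 1 mouse left out. The cause was not tested.

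Over all genes, 69 had an unadjusted p under 0.05 for genotype, 36 when a mean of at least 5 FPKM was required (583 genes tested), 111 with sample weights, and 46 to 75 with 1 mouse left out. The share of higher genes among them, 39.1%, was 66.7% with sample weights, 51.7% after quantile normalization and 16.3% without control mouse 1. Sample weights moved the median of all genes from -0.30 to -0.01 and quantile normalization to -0.12. That median was -0.14 with a pseudocount of 5 and 0.009 with no filter on low values. In the lists around the receptor, an unadjusted p under 0.05 appeared for Clec1b (0.78) and Ppbp (-0.88) with sample weights, Gp6 without control mouse 1 (-1.37), Calm3 without control mouse 2 (-2.25), Pf4 without control mouse 3 (0.81) and Ppbp without TNFdARE mouse 1 (-0.93). For the interaction with sex 54 became 21 at a mean of at least 5 FPKM, and 33 to 205 with 1 mouse left out, with 0 to 20 at an adjusted p under 0.05. Coded as male minus female, the interaction turned from -0.36 to 0.19 for Gp1ba without control mouse 4 (-0.92 to 0.19 with 1 mouse left out). For Gp1bb it turned from 0.11 to -0.72 without control mouse 1 and to -0.19 without TNFdARE mouse 2 (-0.72 to 0.95 with 1 mouse left out), and for Vwf from 0.86 to -0.29 without control mouse 1 (-0.29 to 2.00). That of Gp9 reached an unadjusted limma p of 0.012 without control mouse 4, 0.045 without TNFdARE mouse 3 and 0.046 at a mean of at least 5 FPKM, and that of Vwf 0.038 without control mouse 4 (limma adjusted p from 0.36 to 0.88 for these 4).

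Mice of the 2 groups share numbers, and deviations from the group means correlated at 0.06, -0.06, 0.02 and -0.07 for the 4 shared numbers. These values gave no sign of pairing by number, but they cannot show whether mice shared a litter or were handled together. Some library names also share a label number across the groups, and its meaning is not given. With the replicate number as a block, 64 genes had an unadjusted p under 0.05 for genotype. For the interaction 105 had such a p and 14 an adjusted p under 0.05, but that fit has nearly as many terms as mice. Its p-values can therefore not be relied on, and these counts are no sign of a sex effect. The block turned the interaction to -1.15 for Gp1bb and -0.69 for Vwf.

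With genotype means subtracted, 2 of 10 correlations between the transcripts passed the adjusted threshold, on approximate permutation p-values, against 0. Without the 2 mice farthest from the median, Gp1ba with Gp5 turned to -0.71 and Gp5 with Vwf to 0.22. Without control mouse 1, an alternative chosen after seeing the data, r turned to 0.62 for Gp1ba with Gp9, 0.58 for Gp1bb with Gp9, 0.00052 for Gp1bb with Gp5 and 0.40 for Gp5 with Vwf. Depth is unknown, so how far counting error limits the low genes cannot be given.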
